A study of Mus musculus with 8 samples.

Results

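Reads of 10 genes that mark microglia, the resident macrophages of the brain, were followed through RNA-seq libraries of sorted neural cells from the embryonic cochlear nucleus of the mouse. The genes were C1qa, C1qb, C1qc, P2ry12, Cx3cr1, Csf1r, Tyrobp, Trem2, Aif1 and Fcer1g. They were found in the deposited count table by the Ensembl identifier that the annotation pairs with each symbol, and all 10 were present among its 39017 genes. The sort selected cells of a neural lineage that does not give rise to microglia, so the genes mark a cell type that the sort did not aim for. Their level was low: the 10 genes together took between 0.00109% and 0.00259% of all counts of a library.

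Microglia arise from yolk sac progenitors that enter the neural tube early in development, and they need signals through the receptor Csf1r to survive. In the brain they are recognised by receptors that sense nucleotides and neuronal chemokine, by phagocytic receptors that signal through small adaptor proteins, and by the complement component C1q, which tags synapses and debris for removal. Most of these genes are shared with macrophages at the borders of the brain, and none is a marker of neurons.

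The labels describe 4 wild type libraries, carrying Math1::Cre and a Rosa tdTomato reporter, and 4 mutant libraries that carry both of these and conditional alleles of the hindbrain patterning genes Hoxa2 and Hoxb2. The sample titles give the mutant as Hoxa2+/fl; Hoxb2fl/fl, whereas the design text of the series gives Hoxa2 as fl/fl also. All mice were of strain C57BL/6 and all embryos were at E18.5. Math1, also called Atoh1, drives Cre in cells of the rhombic lip, and both groups hold tdTomato cells of that lineage, from which microglia do not derive. Cochlear nuclei were dissected by hand and dissociated with trypsin, and each library came from 30000 sorted cells of 3 littermates, with a different mother for each library. The series asked what the Hox factors do in these cells. Libraries are named by group and by the running number of their column, mutant 1 to 4 and wild type 5 to 8.

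The stretches of 250 bases given as upstream of the start of C1qb, P2ry12 and Trem2 are shown because these genes belong to different parts of the microglial programme. They are RefSeq sequences of build GRCm38.p6, 5′ to 3′ on the gene's strand, at chr4:136886201-136886450 (minus strand), chr3:59262986-59263235 (minus strand) and chr17:48346151-48346400 (plus strand). The C1qb and P2ry12 stretches do not adjoin the gene starts of GENCODE M21 given below, at 136886187 and 59262871. Distances before the start are counted from the end of the stretch. Capitals mark GAGGAA or GGAAGT on either strand (reverse complements TTCCTC and ACTTCC), letters that occur in the binding motif of PU.1, the transcription factor encoded by Spi1.
C1qb: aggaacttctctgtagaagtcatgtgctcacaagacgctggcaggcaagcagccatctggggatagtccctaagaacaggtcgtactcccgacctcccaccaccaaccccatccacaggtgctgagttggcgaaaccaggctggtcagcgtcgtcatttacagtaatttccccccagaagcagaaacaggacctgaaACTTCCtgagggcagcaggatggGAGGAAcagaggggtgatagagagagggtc
P2ry12: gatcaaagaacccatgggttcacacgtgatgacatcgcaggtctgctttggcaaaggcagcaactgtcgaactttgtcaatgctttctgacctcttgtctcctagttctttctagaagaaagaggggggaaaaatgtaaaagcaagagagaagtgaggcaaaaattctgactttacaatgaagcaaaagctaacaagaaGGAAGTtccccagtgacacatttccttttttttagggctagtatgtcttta
Trem2: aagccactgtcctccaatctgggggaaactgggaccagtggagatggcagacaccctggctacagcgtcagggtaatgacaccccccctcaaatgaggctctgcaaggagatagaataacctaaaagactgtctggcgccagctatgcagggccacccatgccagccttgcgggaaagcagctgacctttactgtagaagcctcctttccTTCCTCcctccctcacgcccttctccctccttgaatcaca
The C1qb window held both, with GAGGAA beginning 30 bases and ACTTCC 53 bases before the start. The P2ry12 window held GGAAGT and the Trem2 window TTCCTC. Windows were given for 7 of the 10 genes. GAGGAA was in 4 of the 7, against 23.3% of 32851 promoters of the same length, and GGAAGT was in 3 of the 7, against 19.7%. At least 1 of them was in 5 of the 7, and the windows of Cx3cr1 and Fcer1g, not shown, held neither. The share of all promoters with at least 1 of the 2 was not computed. It cannot be below 23.3%, and 5 of 7 has no background to be set against. In the C1qc window the 2 motifs overlapped. A match describes the letters of a window and not a binding site.

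Total counts ran from 24789043 to 51118195 per library. Hoxb2, homozygous for the conditional allele in both descriptions, had 1456, 1198, 1311 and 1538 counts in wild type 5 to 8, against 208, 97, 194 and 210 in mutant 1 to 4. Hoxa2 was at 30.8 to 55.1 CPM (counts scaled by TMM to a common total) in wild type and 11.1 to 47.97 CPM in mutant libraries, which overlap. The deleted part of each gene is not described in the sources used here. The sorted population held its own markers: the summed level of 12 genes of Atoh1-derived and excitatory neurons, such as Zic1 and Neurod1, was 6392 to 7225 CPM in wild types and 6298 to 8723 CPM in mutant libraries. Over all genes, 70 of 19494 tested passed edgeR's quasi-likelihood test at an adjusted p below 0.05, which is 0.359%, and 42 of them were lower in mutants (0.215%). Of the 12 lineage genes 1 passed, Nhlh1, which was lower in mutants (log2 fold change -0.95, SE 0.119, adjusted p = 0.00603 by edgeR). Log2 fold changes of the 12 were negative in 8 and positive in 4, with Zic1 and Neurod1 among the 4 (51.6% of all tested genes were negative). Of single libraries, mutant 1 mattered most: without it 544 genes passed.

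Of the microglia genes C1qa alone passed, and it fell in mutants. It stood at 2.36 ± 1.19 CPM in wild types against 0.203 ± 0.104 CPM in mutants (SD, n = 4 each). Across all 10 genes, 9 had a lower mean in mutants, the exception being Csf1r. The libraries of the 2 groups did not overlap for C1qa, P2ry12 and Aif1, each lower in mutants, 3 of 10 genes against 2.37% of the 34724 genes with a count. In these bulk samples fewer microglia and less of an RNA in each of them cannot be told apart. In a fit without the low-count filter, which covers all 10 genes, their log2 fold changes had a median of -1.42, where that of all genes was -0.05.

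The low-count filter asked for about 0.278 CPM in at least 4 libraries, and 6 genes met it: C1qa, C1qb, C1qc, P2ry12, Cx3cr1 and Csf1r. The 4 wild type libraries alone carried C1qa past it, with 1 mutant library above the limit. They were also enough for Cx3cr1 and P2ry12, with 2 and 3 mutant libraries above it. None of these 3 genes would have entered the test on mutant libraries alone, which limits their fold changes and calls below. Tyrobp, Trem2, Aif1 and Fcer1g were not tested in the main comparison. No mutant library reached the limit for Tyrobp, Trem2 or Aif1, and 1 did for Fcer1g. For these genes the values of the fit without the filter are given below. A library at these depths with 0 counts would allow a level of up to 0.0587 to 0.121 CPM, counting error only, but each of the 10 genes had at least 1 count in every library.

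**Figure D1:**
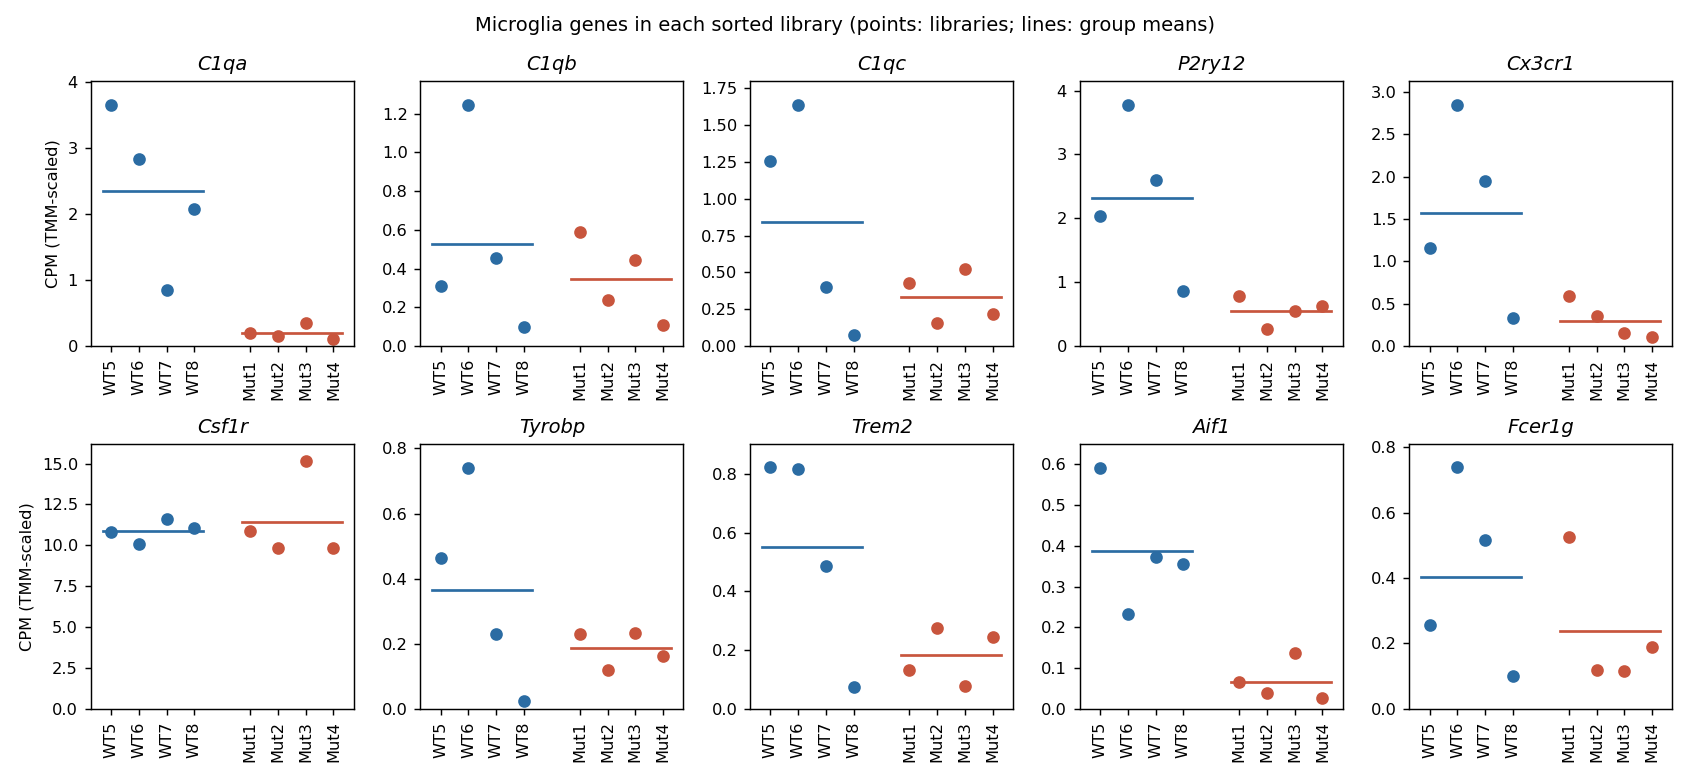
Level of each microglia gene (TMM-scaled CPM, linear axis from 0, scale differs by panel) in wild type 5 to 8 (blue) and mutant 1 to 4 (red), with lines at the group means. The groups are apart for C1qa, P2ry12 and Aif1, Csf1r is near 10 to 15 CPM in every library, and wild type 8 lies among or below the mutant libraries for C1qb, C1qc, Cx3cr1, Tyrobp, Trem2 and Fcer1g.

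C1qa, C1qb and C1qc encode the A, B and C chains, which assemble together into C1q, the recognition part of the classical complement pathway. They lie side by side on the minus strand of chromosome 4 (mm10, GENCODE M21): C1qb at 136880129 to 136886187, C1qc at 136889804 to 136893065 and C1qa at 136895917 to 136898803. C1qa (ENSMUSG00000036887) had 142, 73, 30 and 82 counts in wild type 5 to 8, against 6, 4, 18 and 4 in mutant 1 to 4. The lowest wild type library, wild type 7, was at 0.858 CPM and the highest mutant library, mutant 3, at 0.350 CPM. Exact 95% intervals for these 2 libraries, in CPM of the unscaled total, were 0.582 to 1.23 and 0.209 to 0.557. The log2 fold change was -3.45 (SE 0.50, adjusted p = 0.0115 by edgeR), a level 10.9-fold lower, in 4 of 4 mutant libraries. The call was lost without mutant 2 (-3.36, adjusted p = 0.0525 by edgeR), without mutant 4 (-3.23, adjusted p = 0.0527 by edgeR) and with limma-voom (-3.31, adjusted p = 0.0749). It was also lost with mutant 1 and wild type 5 and 6 all left out (-2.74, adjusted p = 0.0697 by edgeR), the 3 libraries that earlier results of these data had set apart; limma-voom called 0.354% and the 5 remaining libraries 0.849% of all genes.

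C1qb and C1qc did not pass. C1qb had 12, 32, 16 and 4 counts in wild type 5 to 8, against 18, 6, 23 and 4 in mutant 1 to 4. Wild type 6 was highest at 1.25 CPM, wild type 8 lowest at 0.101 CPM, and the mutant libraries lay between them. Its log2 fold change of -0.55 (SE 0.700, adjusted p = 0.766 by edgeR) turned to 0.27 without wild type 6. C1qc had 49, 42, 14 and 3 counts in wild type 5 to 8, against 13, 4, 27 and 8 in mutant 1 to 4. Wild type 5 and 6 stood above all mutant libraries, wild type 7 was within their range and wild type 8 below it. The log2 fold change was -1.28 (SE 0.731, adjusted p = 0.495 by edgeR), and it was 0.42 without mutant 1, wild type 5 and wild type 6.

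The mix of the 3 chains differed between the libraries. C1qa made up 69.95%, 49.7%, 50% and 92.1% of C1q counts in wild type 5 to 8, out of 203, 147, 60 and 89 counts. In mutant 1 to 4 it made up 16.2%, 28.6%, 26.5% and 25.0%, out of 37, 14, 68 and 16 counts. The lowest wild type share thus stood above the highest mutant share, but exact 95% intervals were wide: 41.3% to 58.0% in wild type 6 and 8.39% to 58.1% in mutant 2. The share was compared after the values were seen and has no test. Wild type 8 was alone in holding much C1qa with almost no C1qb or C1qc.

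**Figure D2:**
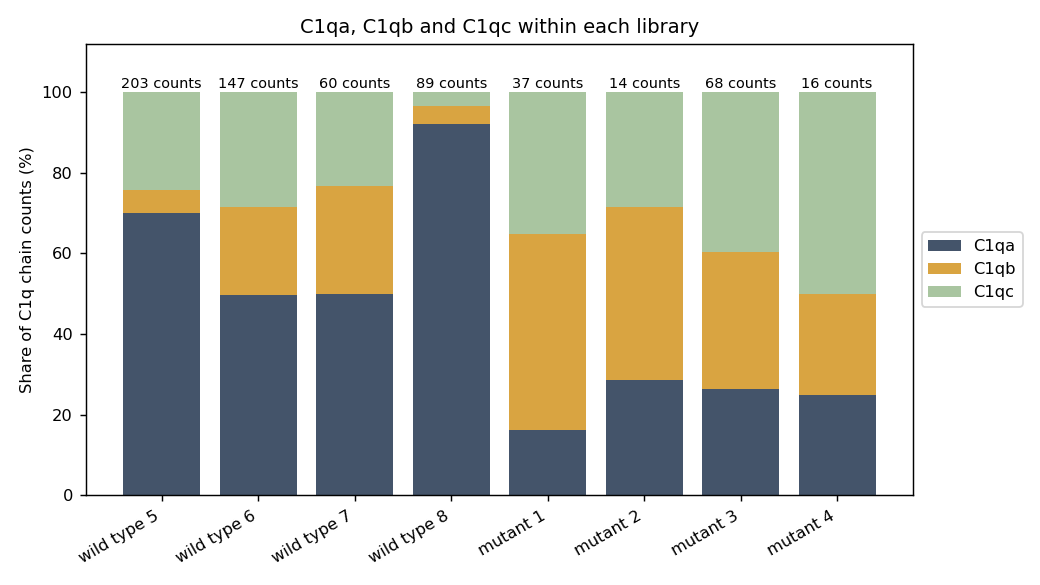
Share of the counts of C1qa, C1qb and C1qc (vertical axis, %) that each chain took in each library, with the summed counts above the bars. C1qa took 49.7% to 92.1% in wild type and 16.2% to 28.6% in mutant libraries.

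Of the receptors, P2ry12 and Cx3cr1 had lower means in mutants without passing. P2ry12 is the ADP receptor by which microglial processes find sites of injury, and Cx3cr1 is the receptor for the neuronal chemokine Cx3cl1. P2ry12 (ENSMUSG00000036353, chromosome 3, 59216272 to 59262871, minus strand) had 79, 97, 91 and 34 counts in wild type 5 to 8, against 24, 7, 28 and 23 in mutant 1 to 4. Wild type 8, at 0.861 CPM, lay just above mutant 1, at 0.786 CPM, so that the groups were apart by a narrow margin. The means were 2.32 ± 1.21 CPM in wild types against 0.557 ± 0.213 CPM in mutants (SD, n = 4 each). The log2 fold change was -2.03 (SE 0.445, adjusted p = 0.0900 by edgeR). It passed without mutant 1 (-2.21, adjusted p = 0.0351 by edgeR), without wild type 8 (-2.30, adjusted p = 0.0424 by edgeR), without the low-count filter (-2.00, adjusted p = 0.00714 by edgeR) and with DESeq2 (-2.03, adjusted p = 0.0012). Those settings called 2.7%, 0.16%, 0.616% and 2.55% of all genes.

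P2ry12 lies wholly inside Med12l, a gene on the opposite strand. The 2 share 9 exonic bases. Med12l was at 35.8 ± 4.81 CPM in wild types against 31.6 ± 3.14 CPM in mutants (SD, n = 4 each), with a log2 fold change of -0.18 (SE 0.128, adjusted p = 0.580 by edgeR). Nothing in the sources used here says that the counting kept the strand, so reads from the unspliced host RNA cannot be told apart from reads of P2ry12.

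Cx3cr1 (ENSMUSG00000052336, chromosome 9, 119901616 to 120069879, minus strand) had 45, 73, 68 and 13 counts in wild type 5 to 8, against 18, 9, 8 and 4 in mutant 1 to 4. Wild type 5, 6 and 7 were above every mutant library, whereas wild type 8, at 0.329 CPM, lay below mutant 1, at 0.589 CPM, and mutant 2. The means were 1.57 ± 1.08 CPM in wild types against 0.302 ± 0.219 CPM in mutants (SD, n = 4 each), with a log2 fold change of -2.41 (SE 0.669, adjusted p = 0.186 by edgeR). It passed without mutant 1 (-2.97, adjusted p = 0.0491 by edgeR) and with DESeq2 (-2.40, adjusted p = 0.0131). The annotated span of Cx3cr1 crosses Wdr48, Gorasp1, Ttc21a, Csrnp1 and Xirp1, with which it shares 0 exonic bases. It also crosses 4 non-coding genes that have no row in the count table, of which Gm33858, on the opposite strand, shares 78 exonic bases with Cx3cr1. Reads of that stretch cannot be assigned to either without strand.

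Csf1r, the receptor for the survival factors Csf1 and Il34, behaved differently from the rest. It had 421, 259, 406 and 438 counts in wild type 5 to 8, against 332, 249, 781 and 365 in mutant 1 to 4. The means were 10.9 ± 0.635 CPM in wild types against 11.4 ± 2.54 CPM in mutants (SD, n = 4 each), and mutant 3 was the one library that stood off, at 15.2 CPM. The log2 fold change was 0.07 (SE 0.166, adjusted p = 0.889 by edgeR), and it was -0.10 without mutant 3. Csf1r alone made up 40.4% to 85.4% of the summed level of the 10 genes. It overlaps Hmgxb3, on the opposite strand, over 873 exonic bases, and without strand the reads of that stretch cannot be assigned to either gene. Hmgxb3 was at 25.4 ± 1.56 CPM in wild types against 25.9 ± 3.58 CPM in mutants (SD, n = 4 each). Whether reads of Hmgxb3 contributed to the level of Csf1r was not tested.

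Trem2, a lipid-sensing phagocytic receptor, signals through Tyrobp, an adaptor with an immunoreceptor activation motif, and Fcer1g is the like adaptor of Fc receptors. Trem2 (ENSMUSG00000023992, chromosome 17, 48346401 to 48354147, plus strand) had 32, 21, 17 and 3 counts in wild type 5 to 8, against 4, 7, 4 and 9 in mutant 1 to 4. Wild type 8 was the lowest of all 8 libraries, at 0.0759 CPM, and the other wild type libraries were above every mutant library. The fit without the filter gave Trem2 a log2 fold change of -1.59 (SE 0.642, adjusted p = 0.388 by edgeR).

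Tyrobp (chromosome 7, 30413760 to 30417585, plus strand) had 18, 19, 8 and 1 counts in wild type 5 to 8, against 7, 3, 12 and 6 in mutant 1 to 4. Wild type 5 and 6 were high, and wild type 7 lay within the mutant range of 0.118 to 0.233 CPM. Fcer1g (chromosome 1, 171229572 to 171234365, minus strand) had 10, 19, 18 and 4 counts in wild type 5 to 8, against 16, 3, 6 and 7 in mutant 1 to 4. Mutant 1, at 0.524 CPM, was close to wild type 7, at 0.515 CPM, and the groups overlapped widely. The fit without the filter gave log2 fold changes of -0.88 (SE 0.703, adjusted p = 0.709 by edgeR) for Tyrobp and -0.72 (SE 0.659, adjusted p = 0.720 by edgeR) for Fcer1g.

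Aif1 encodes Iba1, the calcium-binding cytoplasmic protein by which microglia are commonly stained. Aif1 (chromosome 17, 35170991 to 35176068, minus strand) had 23, 6, 13 and 14 counts in wild type 5 to 8, against 2, 1, 7 and 1 in mutant 1 to 4. Every wild type library was above every mutant library, the closest being wild type 6 at 0.234 CPM and mutant 3 at 0.136 CPM, whose exact 95% intervals of 0.0888 to 0.527 and 0.0551 to 0.282 CPM of the unscaled total overlap. The means were 0.388 ± 0.149 CPM in wild types against 0.0670 ± 0.0487 CPM in mutants (SD, n = 4 each). The fit without the filter gave a log2 fold change of -2.39 (SE 0.735, adjusted p = 0.165 by edgeR), which did not pass.

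**Figure D3:**
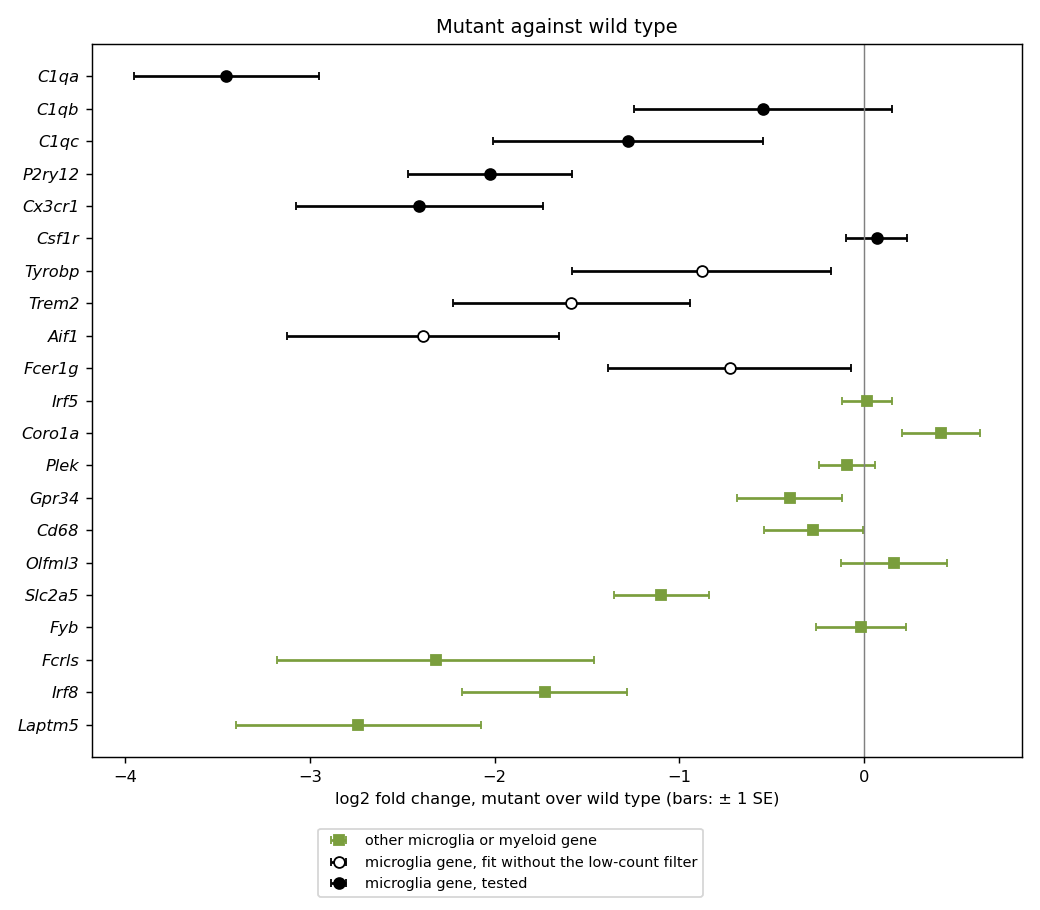
Log2 fold change of mutant over wild type (horizontal axis, bars ± 1 SE) for the microglia genes that were tested (filled circles), those that only the fit without the low-count filter covers (open circles) and other microglia and myeloid genes (squares). C1qa is farthest from 0 at -3.45, and Csf1r is at 0.07.

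Per kilobase of the deposited gene width, the genes fell into an order that was not the same in the 2 groups. In wild type C1qa was at 2.27 ± 1.14 CPM per kilobase and Csf1r at 2.23 ± 0.130 (SD, n = 4), followed by P2ry12 at 0.974 ± 0.510, Tyrobp at 0.646 ± 0.545 and Fcer1g at 0.504 ± 0.352. C1qb, C1qc and Cx3cr1 followed at 0.419 to 0.486, then Aif1 at 0.253 ± 0.0972 and Trem2 at 0.111 ± 0.0714. Of these neighbours, Csf1r and P2ry12 had ranges over libraries that did not overlap, and all other neighbours overlapped. In mutants Csf1r was first at 2.34 ± 0.521 CPM per kilobase, clear of Tyrobp at 0.329 ± 0.0985, and C1qa was sixth among the genes at 0.195 ± 0.100. Of all genes in the table, 30.8% had a higher mean level per kilobase than Csf1r and 66.0% a higher one than Trem2. The deposited width of P2ry12, Cx3cr1, Csf1r, Tyrobp and Fcer1g is shorter than the exons of M21, so levels per kilobase of these 5 depend on the annotation.

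**Figure D4:**
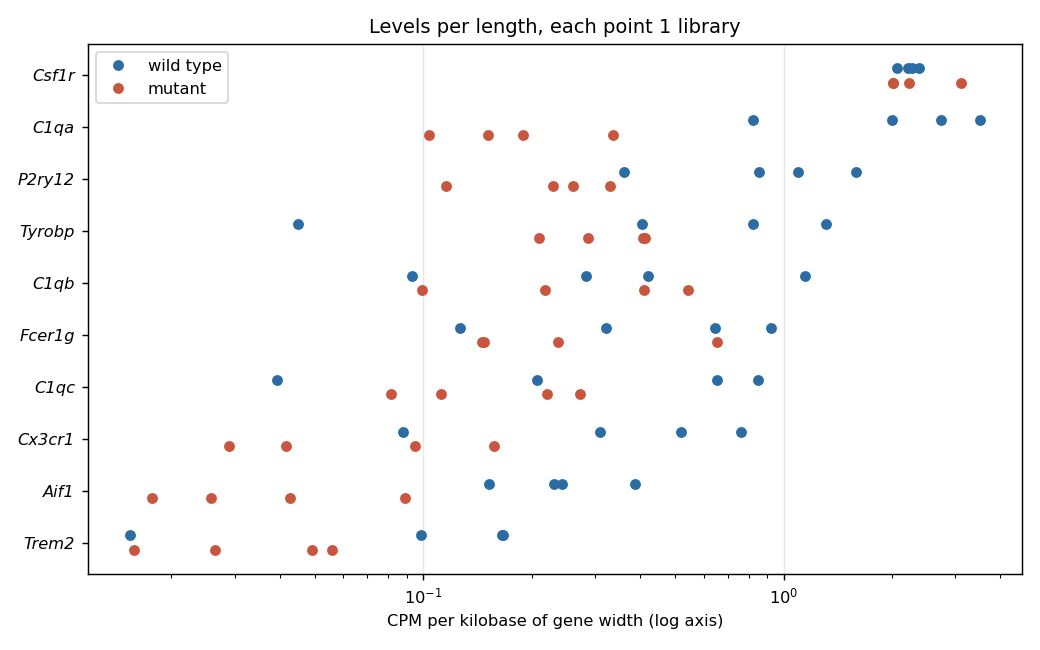
CPM per kilobase of gene width (log axis) of the 10 microglia genes, ordered by their mean over 8 libraries, each point being 1 library (blue wild type, red mutant). Csf1r lies between 2.01 and 3.11 in every library, whereas Tyrobp runs from 0.0449 to 1.31 within wild type.

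The spread within wild type was wide. Wild type 6 was the highest of the 8 libraries for 6 genes (C1qb, C1qc, P2ry12, Cx3cr1, Tyrobp and Fcer1g), and wild type 5 for 3 (C1qa, Trem2 and Aif1). Wild type 8 was the lowest for 5 genes. The highest wild type library was 29.2 times the lowest for Tyrobp, 21.5 times for C1qc and 12.3 times for C1qb, against 1.15 times for Csf1r. In mutants it ran from 1.55 times for Csf1r to 5.46 times for C1qb and Cx3cr1, less than in wild type for 8 of the genes and more for Csf1r and for Aif1 (5.03 against 2.53 times).

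Summed over the 10 genes, the libraries held 21.4, 25.0, 19.5 and 15.1 CPM in wild type 5 to 8, against 14.4, 11.5, 17.8 and 11.6 CPM in mutant 1 to 4. Mutant 3, through Csf1r, stood above wild type 8. The difference of -6.38 CPM did not pass (exact two-sided permutation p = 0.0571, where the smallest that 8 libraries allow is 0.0286). Without Csf1r, a choice made after its values were seen and so given with no test, the other 9 genes summed to 10.5, 14.9, 7.87 and 4.00 CPM in wild type 5 to 8, against 3.54, 1.73, 2.58 and 1.78 CPM in mutant 1 to 4. Those sums did not overlap, with wild type 8 the closest to the mutants. C1qa alone held 2.08 of the 4.00 CPM of wild type 8. On the mean log2 CPM of all 10 genes the groups overlapped. There wild type 8 (-1.30) lay below mutant 1 (-0.91) and mutant 3 (-1.17) and above mutant 2 (-1.58) and mutant 4 (-1.65).

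A wider list of 60 microglia and myeloid genes was examined in the same fit. Of its 40 tested genes, 0 passed edgeR's test, 7 had an unadjusted p below 0.05, all lower in mutants (5.29% of all tested genes were), and 20 were too low to test. DESeq2 called 3 of them (Slc2a5, Irf8 and Laptm5), edgeR without the low-count filter 1 (Laptm5), and limma-voom 0 (over all genes 2.55%, 0.616% and 0.354%). Log2 fold changes of the 40 had a median of -0.41, against -0.01 over all tested genes, with 31 negative and 9 positive (51.6% of all tested genes were negative). The 40 include genes that neurons or glia also use, among them Sparc, Sall1 and Tgfbr1, which are part of the 7. These counts are therefore not of microglial genes alone. Without the shared genes, 51 were summed, to means of 86.6 CPM in wild types and 77.6 CPM in mutants. The difference of -9.02 CPM did not pass (exact two-sided permutation p = 0.229), and the groups overlapped. Irf5, Plek and Coro1a, the 3 genes of the sum above 5 CPM, held much of it. Leaving them out, an unplanned choice with no test, gave means of 41.4 and 29.6 CPM, and the groups still overlapped. In 41 of the 60 genes the mean level was below 1 CPM, among them the microglial surface genes Tmem119 and Siglech and the leukocyte gene Ptprc (0.155, 0.440 and 0.560 CPM in wild types, 0.114, 0.166 and 0.293 CPM in mutants), which were picked after their values were seen.

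Of this list, after genes set aside as shared with neurons or glia, the 8 highest per kilobase did not pass, and 7 of them had log2 fold changes between -0.40 and 0.42. Irf5, a transcription factor of interferon responses, had a log2 fold change of 0.02 (SE 0.135), Coro1a, an actin regulator of leukocytes that neurons also make, 0.42 (SE 0.210), and Plek, a substrate of protein kinase C, -0.09 (SE 0.152). All 3 overlap a protein-coding gene on the opposite strand over 26 to 411 exonic bases. Gpr34, a microglial receptor for lysophosphatidylserine that lies inside Cask, was at -0.40 (SE 0.284), Cd68, a lysosomal protein of macrophages, at -0.27 (SE 0.268), Olfml3 at 0.16 (SE 0.288) and the adaptor Fyb at -0.02 (SE 0.244). Slc2a5, a fructose transporter of microglia, differed more, at 3.51 ± 0.988 CPM in wild types against 1.63 ± 0.227 CPM in mutants (SD, n = 4 each). Every wild type library was above every mutant library for Slc2a5, and its log2 fold change of -1.10 (SE 0.256, adjusted p = 0.103 by edgeR) did not pass.

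Named after their values were seen, Irf8, a transcription factor that microglia require, and Laptm5, a lysosomal protein of blood cells, also had groups that did not overlap. Irf8 was at 1.57, 1.60, 0.686 and 0.582 CPM in wild type 5 to 8, against 0.216 to 0.433 CPM in mutants, with a log2 fold change of -1.73 (SE 0.449, adjusted p = 0.148 by edgeR). Laptm5 was at 1.00, 1.52, 0.458 and 0.354 CPM in wild type 5 to 8, against 0 to 0.164 CPM in mutants, with a log2 fold change of -2.74 (SE 0.662, adjusted p = 0.117 by edgeR). For both, wild type 5 and 6 were the high libraries.

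Ligands and partners of the 10 genes were measured in the same libraries, where 15 of 21 could be tested and 0 passed edgeR's test, with 1 higher and 1 lower at an unadjusted p below 0.05 (over all genes 7.22% and 5.29%). Csf1 and Il34, the ligands of Csf1r, were at 2.45 ± 0.784 and 0.611 ± 0.258 CPM (SD, n = 4) in wild type and 1.97 ± 0.745 and 0.731 ± 0.0788 CPM (SD, n = 4) in mutants. Cx3cl1, the ligand of Cx3cr1, was at 2.58 ± 0.816 CPM in wild types against 2.86 ± 1.19 CPM in mutants (SD, n = 4 each), which overlap. Cd47 and Cd200, surface proteins by which neurons restrain microglia, were at 230 and 62.3 CPM in wild types and 233 and 72.6 CPM in mutants. Sirpa, the receptor for Cd47, was higher in every mutant library (18.7 to 22.9 CPM) than in every wild type library (10.1 to 15.6 CPM), with a log2 fold change of 0.70 (SE 0.153, adjusted p = 0.0884 by edgeR) that did not pass. Gnai2, the G protein subunit to which P2ry12 couples, and the Trem2 ligands Apoe and Clu had log2 fold changes of -0.19 (SE 0.172), -0.54 (SE 0.225) and -0.42 (SE 0.247). The remaining ones at 1 CPM or more, the complement regulator Cr1l, the phagocytic receptor Megf10 and the complement protease C2, were at -0.15 (SE 0.160), 0.09 (SE 0.176) and -0.29 (SE 0.344).

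Markers of other cells that a sort could carry along were summed in each library. The sum of 10 genes of macrophages at the brain borders was 32.5 to 47.8 CPM in wild types and 17.5 to 30.4 CPM in mutant libraries, groups that do not overlap. Most of it came from Stab1, a scavenger receptor also made by endothelium, and F13a1, a clotting factor subunit. The same list's Mrc1 and Lyve1 were at 0.554 and 0.169 CPM in wild types and 0.581 and 0.228 CPM in mutants, named after their values were seen. Sums of 11 neutrophil and monocyte genes were 0.430 to 2.53 CPM in wild types and 0.670 to 1.02 CPM in mutants, with Ly6c2 at 0 in all libraries. Sums over 8 fibroblast genes were 2.63 to 13.2 CPM in wild types and 3.39 to 8.48 CPM in mutants, and over 10 endothelial genes 9.69 to 27.0 and 8.61 to 18.7 CPM, with Ly6c1 at 0 in all libraries. Wild type 6 was highest in each of these but the border list, where wild type 5 was at 47.8 and wild type 6 at 47.2 CPM. Of the 2 highest genes of each list, none passed edgeR's test, and Mpo and Tpsb2 were too low to test. Log2 fold changes were -0.68 for Stab1, -1.62 for F13a1, -0.68 for Ccr2, -0.64 and -0.76 for the collagen genes Col1a2 and Col3a1, and -0.63 and -0.24 for the endothelial genes Kdr and Egfl7. They were -0.81 and -0.68 for Notch3 and Rgs5 of mural cells, 0.09 and -0.27 for Lck and Cd8a of lymphocytes and -0.29 for Kit. In glia and choroid plexus they were 0.22 for Pdgfra, -0.73 for Olig2, -0.40 for Slc1a2, -0.32 for Fabp7, -0.32 for Otx2 and 0.17 for Folr1, and in inhibitory neurons -1.12 for Lhx1 and 0.78 for Slc6a5. Otx2 alone made up most of the choroid plexus sum, at means of 618 of 630 CPM in wild types and 497 of 510 CPM in mutants. Kit did the same in the mast cell list, at 46.7 of 47.1 CPM and 38.2 of 38.9 CPM. These 2 sums therefore follow single genes, and which cells made those RNAs was not tested. The part of the listed cell types in the microglia values was not tested.

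**Figure D5:**
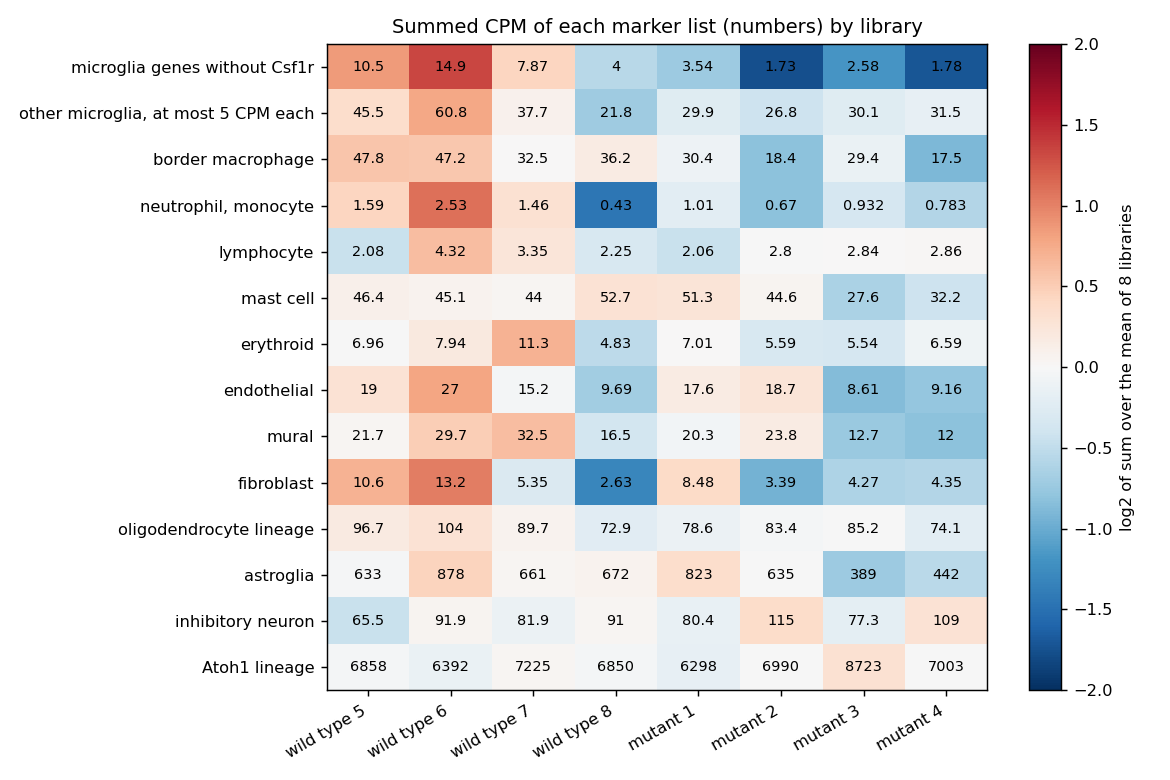
Summed CPM of marker lists (numbers) in each library, coloured by the log2 ratio to the mean of the 8 libraries of that list. The 9 microglia genes without Csf1r run from 14.9 CPM in wild type 6 to 1.73 CPM in mutant 2, and the Atoh1 lineage list from 6298 to 8723 CPM.

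The summed level of the 10 genes was set against that of each of 15 marker lists over the 8 libraries, with exact permutation tests adjusted over the 15. Pearson's r was 0.859 with the other microglia genes (adjusted p = 0.0293), 0.893 with border macrophage genes, 0.890 with neutrophil and monocyte genes and 0.889 with oligodendrocyte lineage genes (adjusted p = 0.0180 each, exact permutation). Spearman's rho for these 4 was 0.857, 0.833, 0.810 and 0.786, with an adjusted exact permutation p = 0.105 for each. Without wild type 5 and wild type 6, the libraries farthest from the median of the sum, r was 0.578, 0.745, 0.656 and 0.629 (exact permutation, adjusted p = 0.568 each). None of the 4 passed then, in 6 libraries over a narrower range of the sum, though r stayed positive. On log2 sums of all 8 libraries none of the 4 passed either (exact permutation, adjusted p = 0.0539 to 0.0683). The calls thus held only for Pearson's r on unlogged sums with wild type 5 and 6 kept. Permutations exchanged libraries across the 2 groups, so a difference between groups and variation within them cannot be told apart here. Against the Atoh1 lineage list r was -0.059. With Csf1r left out of the sum of the 10 genes, an unplanned choice with no test, Pearson's r over 8 libraries was 0.786, 0.872, 0.935 and 0.889 for the same 4 lists. For the Atoh1 lineage list it was then -0.376.

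Genes were also ranked by how closely their log2 CPM followed the mean log2 CPM of the 10 microglia genes over the 8 libraries. Of 17954 genes compared, 394 (2.19%) reached r of at least 0.8. The 10 closest with an established name were Rsrc1 (r = 0.968), Rnf43, Sass6, Igfn1, Fcrls (r = 0.946), Ikzf1 (r = 0.946), Rasef, Trpm1, Cfap61 and Frmd6 (r = 0.935). Fcrls, a microglial Fc receptor-like gene, was at 1.00, 2.22, 1.06 and 0.127 CPM in wild type 5 to 8, against 0.262, 0.0394, 0.466 and 0.0270 CPM in mutant 1 to 4, so that wild type 8 lay within the mutant range. Ikzf1 encodes a transcription factor of blood cells. Rsrc1 and Sass6, a splicing-related gene and a centriole gene that are not specific to microglia, were at 53.7 and 33.6 CPM in wild type libraries. Of the wider microglia list, 8 of the 31 genes compared reached r of at least 0.8, and their median r was 0.70 against -0.02 over all genes. These correlations share 8 libraries, in which wild type 6 is highest and wild type 8 lies among the low mutants, and are descriptions. For the 10 closest genes, r was 0.884 to 0.956 without wild type 6. It was 0.882 to 0.954 with the group means taken off, but the genes were ranked on all 8 libraries. Among the 10 microglia genes themselves, r with the mean of the other 9 ran from 0.616 for Aif1 to 0.914 for P2ry12, with Csf1r apart at -0.08.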

How the data were processed

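The authors deposited raw, not normalised counts for each Ensembl gene in 1 table, beside a gene width in bases (per the file headers). Per the submitters' processing notes, mm10 was the build and bcl2fastq 1.8.4 made the reads; an aligner, a counter and an annotation release are not given in the sources used here. Per the labels' protocols, 2 ng of RNA, primed with poly-A and random primers, were amplified for 14 cycles, and 8 libraries were pooled over 3 lanes. Columns show the group and a running number only. Positions are from GENCODE M21; 37693 of 39017 identifiers matched a symbol.

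Genes were tested in R 4.3.3 with edgeR 4.0.16 (filterByExpr, TMM, robust quasi-likelihood F test, Benjamini-Hochberg adjusted p below 0.05, no covariate). SE is the log2 fold change divided by the root of F. The biological coefficient of variation was 23.2%. Alternatives used DESeq2 1.42.0, limma 3.58.1, other scalings and filters, and libraries left out. Sums of CPM were compared by exact permutation over 70 splits, and intervals are Clopper-Pearson at 95%, for counting error only. Genes named were the 10 genes, the 8 highest per kilobase of the wider list, partners at 1 CPM or more with Csf1, Il34 and Cx3cl1, the 2 highest of each other list, overlapping genes, and the 10 closest in pattern. Irf8, Laptm5, Tmem119, Siglech, Ptprc, Sparc, Sall1, Tgfbr1, Nhlh1, Mrc1, Lyve1, Cpa3, Ly6c1, Ly6c2, Hba-a1 and Hba-a2 lie outside this rule and were picked after their values were seen. The members and lists were chosen with earlier results of these data known.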

Additional observations from a re-analysis of the deposited data

How the results depend on the processing

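C1qa kept its direction under all 17 alternatives, from -3.92 to -2.74, and its call under 13. It was lost with limma-voom (-3.31) and with mutant 1 and wild type 5 and 6 all left out (-2.74), and also without mutant 2 (adjusted p 0.0525) and without mutant 4 (0.0527). With 1 library left out it ran from -3.92 to -3.17. The genes past the threshold numbered 214 without the low-count filter, 497 with DESeq2, 233 with limma-voom and quality weights, 171 without the 3 libraries and 26 to 544 with 1 left out. The microglia genes among them numbered 2, 3, 1, 0 and 0 to 3 in the same order, 0 with limma-voom and 0 with a filter of 1 CPM in 4 libraries, which C1qa does not meet. The wider list gave 1 without the filter and 3 with DESeq2. Log2 fold changes of P2ry12 passed at -2.00 without the filter and -2.03 with DESeq2, and ran from -2.30 to -1.70 with 1 library left out; those of Cx3cr1 passed at -2.40 with DESeq2 and ran from -2.97 to -1.96. C1qb turned to 0.27 without wild type 6 (-0.91 to 0.27 with 1 library left out), C1qc to 0.42 without the 3 libraries, and Csf1r to -0.0563 with quality weights and -0.10 without mutant 3 (-0.10 to 0.14). The difference in summed CPM of the wider list, which did not pass with all 8 libraries, turned from -9.02 to 2.89 without the 3 libraries. The 4 correlations that passed were 0.818, 0.902, 0.797 and 0.840 on log2 sums and did not pass there (adjusted p 0.0539 to 0.0683), and 0.578, 0.745, 0.656 and 0.629 without wild type 5 and 6. Those with partners, mast cell, endothelial, astroglial and lineage genes turned sign there, to 0.333, -0.0679, -0.165, -0.00962 and 0.474. For each, the cause was not tested. Between scalings the median over all genes lay between -0.07 and -0.01. No paired analysis was possible because the columns carry running numbers and not the replicate numbers of the titles. Depth limits the low genes: Tyrobp, Trem2, Aif1 and Fcer1g had 1 to 32 counts per library and C1qb 4 to 32.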

Other observations

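Genes of blood cells were also present at low and uneven levels. Hbb-bs, an adult beta globin, had 15, 20, 67 and 40 counts in wild type 5 to 8, against 0, 2, 28 and 0 in mutant 1 to 4, with wild type 7 highest. Alas2, the heme synthesis enzyme of red cells, had overlapping groups, with means of 5.63 (wild type) and 5.66 CPM (mutant). Hba-a1 and Hba-a2, near-identical alpha globin copies, were listed at 0 in all libraries, and reads shared by such copies may not have been counted. Of mast cell genes, the protease genes Cpa3 and Tpsb2 had 19 and 26 counts in mutant 1, against at most 4 and 10 in any other library, and were not tested. Mutant 1 was not the highest library for any of the 10 microglia genes. These genes were singled out after their values were seen.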
